A study of Homo sapiens with 4 samples.

Results

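The annexins are calcium-dependent proteins that bind the acidic phospholipids of membranes, chiefly phosphatidylserine, through a conserved core of repeats. Their N-terminal tails differ and bind partners such as S100 proteins. In epithelial cells they are known for linking membranes to actin, for vesicle traffic and for sealing torn plasma membrane. Described here are 9 annexin genes, *ANXA1*, *ANXA2*, *ANXA3*, *ANXA4*, *ANXA5*, *ANXA6*, *ANXA7*, *ANXA9* and *ANXA11*, out of 51136 genes in the table. They were selected on family name and listed with their levels and differences in these same libraries already known, so the comparison of the groups is a description of them and supports nothing further. The other 4 annexin genes of the table are near or at 0.

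RNA-seq was run on cells labelled A549, a line from a human lung adenocarcinoma. They had received either a control small interfering RNA (si-control, labelled WT) or one against *DLX6*, a homeobox transcription factor gene (si-DLX6, labelled *DLX6* knockdown). There were 2 libraries in each group. The labels also give an adipogenic treatment for all 4 samples, and nothing in them ties a group's libraries to independent cultures. The p-values therefore reflect spread that may be technical alone. In the sources used here no siRNA sequence, dose or time is given.

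The libraries held 9678221 to 12075285 reads, as recovered from the deposited values. *DLX6* itself went from 3.27 and 3.47 FPKM (reads scaled to gene length and library total) with si-control to 0.916 and 0.450 FPKM with si-DLX6. Of 15504 genes tested, 1575 were higher and 1471 lower with si-DLX6. With median-of-ratios scaling 1077 were higher and 1814 lower, and with upper-quartile scaling 1274 and 1514. The line's labels were met in part. The epithelial keratin genes *KRT8* and *KRT18* were abundant, at 100.1 to 138 and 422 to 475 FPKM, but *CDH1* (0 to 0.0189 FPKM), *EPCAM* (0.0964 to 0.437 FPKM) and *KRT19* (0 to 0.259 FPKM) were near 0. *KRT7*, also listed as epithelial, was at 0.589 to 1.33 FPKM. A549 is known for a homozygous deletion that takes out *CDKN2A* and *MTAP* and for high levels of *ALDH1A1* and *AKR1B10*. Here *CDKN2A* was at 19.4 to 23.0 FPKM and *MTAP* at 7.03 to 15.6 FPKM, whereas *ALDH1A1* reached at most 0.0805 FPKM and *AKR1B10* 0.377 FPKM. These 4 genes were chosen after their values were seen. The levels of *CDKN2A*, *MTAP*, *ALDH1A1* and *AKR1B10* go against the labelled line in all 4 libraries, so "cells labelled A549" is used throughout. The summed level of 5 adipocyte markers was 0 to 0.0784 FPKM with si-control and 0 to 0.242 FPKM with si-DLX6, with *ADIPOQ* and *LEP* at 0. Markers of fibroblasts summed to 0.283 and 0.343 FPKM against 0.759 and 0.807 FPKM, those of leukocytes to 0.356 and 0.505 against 0.448 and 0.458, and those of endothelium to 0.105 and 0.131 against 0.126 and 0.215. *PTPRC*, *CD3E*, *LYZ*, *CDH5* and *LUM* were at 0 in all libraries.

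Annexin transcripts were higher in the cells given si-DLX6. Of the 9 genes 7 rose and 0 fell at an adjusted p under 0.05 (limma, Benjamini-Hochberg over all genes tested), against 10.2% of all tested genes called higher. *ANXA1*, *ANXA5*, *ANXA6*, *ANXA7* and *ANXA11* rose by factors of 1.29 to 1.47, and the scarce *ANXA3* and *ANXA9* by about 2.5. *ANXA2* and *ANXA4* did not pass. In all 9 genes both si-DLX6 libraries lay above both si-control libraries, which was so for 35.1% of the tested genes. The median log2 difference of the 9 was 0.41, beside 0.045 over all genes tested. *ANXA3* and *ANXA9* were under 1 FPKM in both si-control libraries and passed the filter for testing (1 FPKM in at least 2 libraries) only through the si-DLX6 libraries, so their difference was built into being tested. Since the genes were listed with these values known, nothing is read from the counts.

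The calls were close to the threshold. Adjusted p-values ran from 0.0192 for *ANXA1* to 0.0419 for *ANXA3* and *ANXA7* (limma). With median-of-ratios scaling 2 of the 9 genes were called (*ANXA3* and *ANXA9*), with upper-quartile scaling 3 (the same and *ANXA1*), and with no filter on low values 0. *ANXA3* and *ANXA9* are the genes whose difference was built into being tested. When a single library was dropped, *ANXA1* alone was called if that was si-control 2 or si-DLX6 1, and 0 of the 9 if it was either of the other libraries. The difference was positive in all 98 values of the 9 genes under those settings and the others tried. For most settings this was fixed in advance, because both si-DLX6 libraries lay above both si-control libraries in every gene. Another pseudocount or filter, a block for replicate number and omission of a library could not turn that sign.

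**Figure D1:**
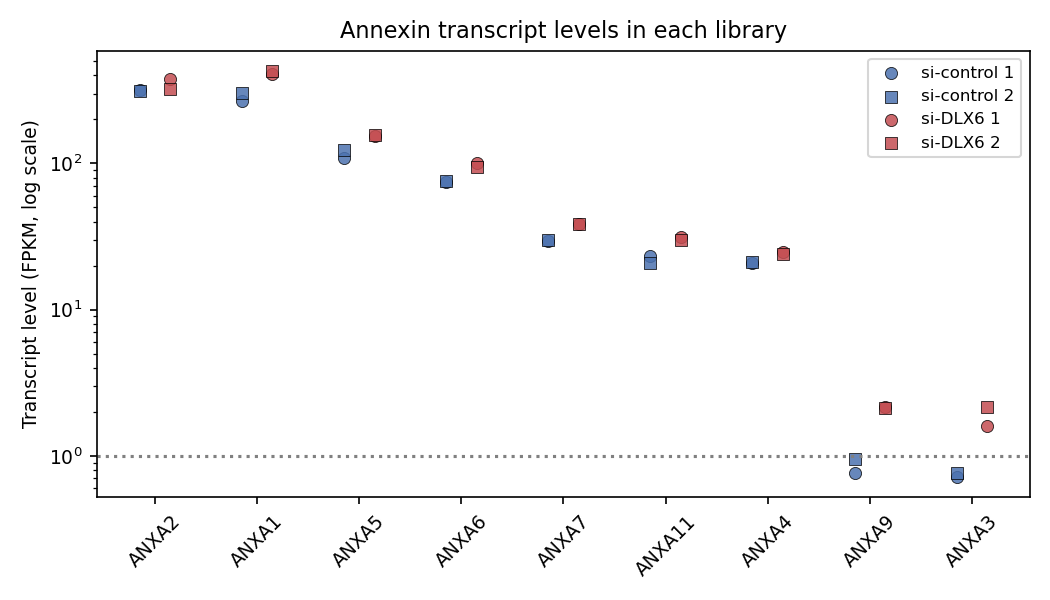
Transcript level of the 9 annexin genes in each library, in FPKM on a log scale, ordered by the si-control mean; blue points are si-control, red points si-DLX6, circles library 1 and squares library 2, and the dotted line marks 1 FPKM. Red points lie above blue ones for every gene, by the least in *ANXA2*, and *ANXA9* and *ANXA3* cross the dotted line.

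By level per gene length, *ANXA2* and *ANXA1* stood at the top, above 98.1% to 98.7% of tested genes in group means. *ANXA5* and *ANXA6* followed, then *ANXA7*, *ANXA11* and *ANXA4* between 20.9 and 38.5 FPKM, and last *ANXA9* and *ANXA3* between 0.717 and 2.17 FPKM. With si-control, *ANXA11* and *ANXA4* overlapped in level, as did *ANXA9* and *ANXA3*; the other neighbours in the order did not. With si-DLX6, *ANXA1* was above *ANXA2* and *ANXA11* above *ANXA4* in both libraries, while *ANXA9* and *ANXA3* still overlapped. The 9 genes summed to 847 and 890 FPKM with si-control and 1143 and 1096 FPKM with si-DLX6, of which *ANXA1*, *ANXA2*, *ANXA5* and *ANXA6* made up 91.1% to 91.7%. The share of *ANXA1* in the sum was 31.7% and 33.99% against 36.0% and 39.1%, and that of *ANXA2* was 37.6% and 35.4% against 33.1% and 29.3%. The order, sum and shares count for *ANXA2* only the reads placed on that gene. Its 3 pseudogenes held 34.9% to 40.9% of the reads placed on *ANXA2* and its copies. How many of those came from *ANXA2* was not measured, so its place relative to *ANXA1* is uncertain.

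*ANXA1* encodes the glucocorticoid-induced annexin that restrains phospholipase A2 and, once released, acts on formyl peptide receptors to resolve inflammation. Its level was 268.8 and 302 FPKM with si-control and 411 and 429 FPKM with si-DLX6. The groups were separated by 109 FPKM, more than the libraries of either group differed. The means were 286 ± 23.8 and 420.0 ± 12.3 FPKM (SD, n = 2 each), a log2 difference of 0.56 (SE 0.11; adjusted p = 0.0192, limma). This was the smallest p of the 9, yet the call was lost with median-of-ratios scaling (adjusted p = 0.0540), with no filter (0.0806), without si-control 1 (0.105) and without si-DLX6 2 (0.0603). The values rest on 5001 and 4510 against 6646 and 7046 reads, or 148% of si-control per library total (95% exact interval 144% to 152%, counting error only). Of the 4604 words of 50 bases in its GENCODE transcripts, 0 occur in another annotated gene; among the other members bar *ANXA2* the share was at most 2.91%, in *ANXA7*. *ANXA1* lies on chromosome 9 from 73151757 to 73170393, plus strand (GENCODE 29, GRCh38, as for all gene positions here). The receptor genes *FPR1*, *FPR2* and *FPR3* were listed at 0 in all 4 libraries, and so was *TSC22D3*, another glucocorticoid-induced gene. The glucocorticoid receptor gene *NR3C1*, at 3.81 to 6.05 FPKM, did not pass (adjusted p = 0.567, limma), and the phospholipase gene *PLA2G4A* was at most 0.0650 FPKM, too low to be tested.

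The 5 genes whose 4 values moved most like those of *ANXA1*, among 6282 genes of at least 10 FPKM, were *UBE2H*, *ZNF394*, *FYN*, *PARP6* and *C7orf73*. Likeness was the Euclidean distance between log2(FPKM + 1) values centred on each gene's mean, over 4 libraries, and it ran from 0.0153 for *UBE2H* to 0.0461 for *C7orf73*. *UBE2H* was at 11.3 and 12.8 FPKM with si-control and 17.6 and 18.3 FPKM with si-DLX6. The 5 are given as a description over 4 libraries.

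*ANXA2* encodes the partner of S100A10 in a membrane-bound heterotetramer that links actin to membranes and binds plasminogen and its tissue activator at the cell surface. Its level was 319 and 315 FPKM with si-control and 379 and 321 FPKM with si-DLX6. The si-DLX6 libraries differed from each other by far more than the 2.22 FPKM that separated the groups. The log2 difference was 0.14 (SE 0.12; 95% interval −0.14 to 0.42; adjusted p = 0.444, limma), 0.044 with median-of-ratios scaling, 0.018 without si-DLX6 1 and 0.26 without si-DLX6 2. *ANXA2* lies on chromosome 15 from 60347134 to 60402883, minus strand.

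Stretches of *ANXA2* recur in its processed pseudogenes, intronless copies elsewhere in the genome. A read that lies wholly within such a stretch cannot be assigned by sequence, and how many reads this touches was not measured. *ANXA2P2*, on chromosome 9 from 33624274 to 33625293, matches the coding sequence at 1004 of 1020 bases (98.4%), and 59.2% of the 971 words of 50 bases in that coding sequence occur in it unchanged. Over all 9726 words of the *ANXA2* transcripts, with their untranslated and alternative parts, the share is 5.91%. The first 120 coding bases, from the start codon on, show how little separates them, with the base that differs in capitals.
ANXA2: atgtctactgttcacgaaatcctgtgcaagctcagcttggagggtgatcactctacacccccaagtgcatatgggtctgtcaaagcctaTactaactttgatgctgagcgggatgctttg
ANXA2P2: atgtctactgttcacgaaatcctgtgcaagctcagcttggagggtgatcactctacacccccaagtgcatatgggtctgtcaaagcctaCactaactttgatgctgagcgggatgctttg
Both were read from GENCODE 29 transcripts; how the submitters aligned reads to such copies is unknown here. The other copies, *ANXA2P1* (93.9% identity, 7.31% of words shared) and *ANXA2P3* (92.25%, 0.721%), match less closely.

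None of the 3 pseudogenes was called in either direction. *ANXA2P2* was listed at 330 and 347 FPKM with si-control and 323 and 332 FPKM with si-DLX6, which is 1.03, 1.10, 0.852 and 1.04 times the level of *ANXA2* in the same libraries. Its groups overlapped (log2 difference −0.045, adjusted p = 0.783, limma), and those of *ANXA2P1*, at 15.01 to 20.1 FPKM, and *ANXA2P3*, at 4.79 to 5.70 FPKM, did too. In all, the pseudogenes held 39.2% and 40.9% of the reads placed on the 4 genes in the si-control libraries, against 34.9% and 39.2% in the others. Summed over *ANXA2* and its copies, the level was 1172 and 1193 RPM (reads scaled to the library total) for si-control. For si-DLX6 it was 1301 and 1180 RPM, so the groups overlapped. The log2 difference of the sum was 0.067 (SE 0.094; adjusted p = 0.649, limma-voom), a setting added after the data were seen.

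**Figure D2:**
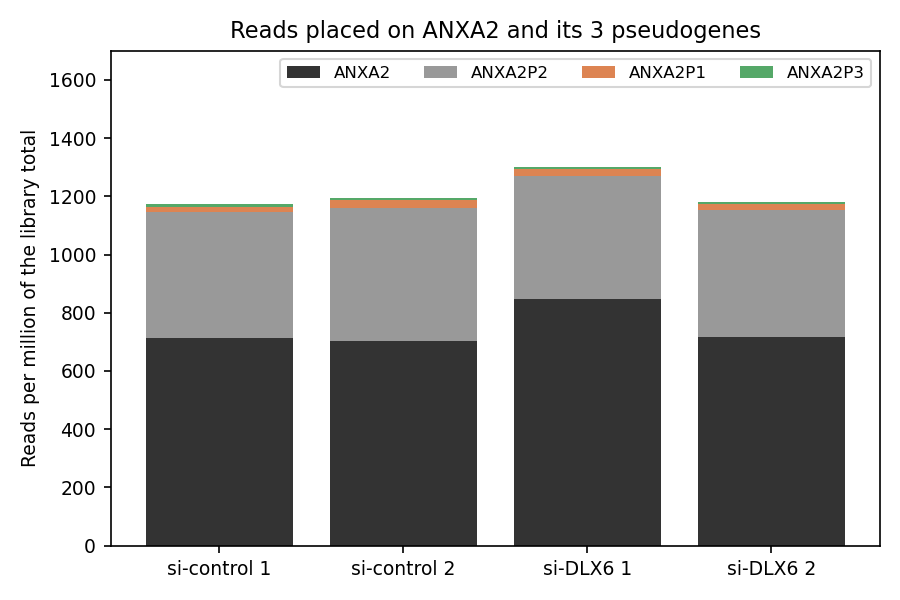
Stacked bars of reads, in RPM, placed on *ANXA2* and on its 3 pseudogenes in each library. *ANXA2P2* takes a large part of each bar, and the bar of si-DLX6 1 stands apart at 1301, with the other 3 between 1172 and 1193.

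The S100 proteins and other EF-hand proteins that bind annexin tails split. Of 5 tested, 2 rose and 0 fell, with a median log2 difference of 0.068, against 10.2% of tested genes called higher and 9.49% lower. *S100A10*, which encodes the partner of ANXA2, went from 127 and 129.7 FPKM to 184 and 164 FPKM (log2 difference 0.43, SE 0.10; adjusted p = 0.0315, limma), and the range of its adjusted p over the other settings was 0.013 to 0.125. The ratio of *ANXA2* to *S100A10*, in FPKM, was 2.51 and 2.43 in the si-control libraries against 2.06 and 1.95 after si-DLX6. *S100A4*, whose product also binds ANXA2, went from 3.23 and 4.21 to 6.76 and 7.31 FPKM (log2 difference 0.77, SE 0.17; adjusted p = 0.0244, limma), a call lost with no filter (0.0904), on leaving out either si-DLX6 library (0.0583 and 0.0833) and on leaving out si-control 1 (0.104). *S100A11*, a partner of ANXA1, was at 330 and 320 FPKM against 342 and 268 FPKM, with overlapping groups (−0.10, adjusted p = 0.647). *SRI*, which encodes the ANXA7 partner sorcin, and *PDCD6*, whose product binds ANXA7 and ANXA11, did not pass either. *S100A6* was at 0 in both si-control libraries and at 0.140 and 0.275 FPKM with si-DLX6.

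In the plasminogen system, which ANXA2 serves at the cell surface, 1 of 4 tested genes rose and 1 fell (median −0.069), beside 10.2% and 9.49% of all tested genes. The urokinase gene *PLAU* went from 103 and 115 to 145 and 142 FPKM (log2 difference 0.40, SE 0.10; adjusted p = 0.0391, limma). Its receptor gene *PLAUR* went the other way, from 295 and 277 to 224 and 202 FPKM (−0.42, SE 0.11, adjusted p = 0.0365, limma). Both lost their calls with median-of-ratios scaling, with upper-quartile scaling, with no filter, and whichever library was left out. *PLG* was at 0 in all libraries.

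*ANXA5* encodes the annexin used as a probe for phosphatidylserine on dying cells. Its level was 109.5 and 124 FPKM with si-control and 153 and 156 FPKM with si-DLX6. The groups were 29.9 FPKM apart, more than the libraries of either group differed. The means were 117 ± 9.94 and 155 ± 1.56 FPKM (SD, n = 2 each; log2 difference 0.41, SE 0.10; adjusted p = 0.0382, limma). Its reads, 2114 and 1912 against 2573 and 2655, came to 134% of si-control per library total (128% to 139%). *ANXA5* lies on chromosome 4 from 121667955 to 121697113, minus strand.

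Of 9 tested genes that expose phosphatidylserine, keep it inside or recognise it, 2 rose, 2 fell and 5 did not pass, beside 10.2% of all tested genes called higher and 9.49% lower. Their median log2 difference was −0.025. *MFGE8*, whose secreted product bridges phosphatidylserine to integrins of phagocytes, went from 11.7 and 11.9 FPKM to 29.5 and 27.5 FPKM (1.20, SE 0.11; adjusted p = 0.00325, limma), and it was called under all 11 other settings tried. *TMEM30A*, the chaperone subunit of flippases that keep the lipid inside, rose from 20.4 and 23.0 to 29.2 and 37.6 FPKM (0.59, SE 0.15; adjusted p = 0.0365, limma). The scramblase genes *ANO6* (10.6 and 13.7 against 5.35 and 7.28 FPKM; log2 difference −0.85, SE 0.19) and *XKR8* (8.18 and 7.25 against 4.18 and 3.07 FPKM; −0.92, SE 0.17) fell, with adjusted p of 0.0269 and 0.0175 (limma). These 3 calls were less stable than that of *MFGE8*: *TMEM30A* was called under 7 of 11 other settings (adjusted p = 0.137 without si-DLX6 2), *ANO6* under 8 of 11 (0.107 without si-control 2) and *XKR8* under 7 of 10 (0.0702 without si-control 1). Scramblases carry phosphatidylserine to the outer face, where annexin V binds it.

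*ANXA6* encodes the large annexin with a duplicated core, a scaffold at the plasma membrane and endosomes. Its level was 75.26 and 75.32 FPKM with si-control and 100.7 and 93.9 FPKM with si-DLX6. The si-control libraries were nearly equal and the si-DLX6 libraries at least 18.5 FPKM above them (log2 difference 0.36, SE 0.094; adjusted p = 0.0413, limma). Reads came to 129% of si-control per library total (124% to 134%). *ANXA6* lies on chromosome 5 from 151100712 to 151157882, minus strand.

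*ANXA4* encodes an annexin that forms lattices on membranes and is typical of secretory epithelia. It was at 20.9 and 21.1 FPKM with si-control and 24.7 and 24.0 FPKM with si-DLX6. The groups did not overlap, but the log2 difference of 0.20 (SE 0.10; 95% interval −0.042 to 0.45) did not pass (adjusted p = 0.204, limma). The interval does not exclude a rise like those of *ANXA6* or *ANXA7*. *ANXA4* lies on chromosome 2 from 69644425 to 69827100, plus strand.

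ANXA1, ANXA2, ANXA4, ANXA5 and ANXA6 are among the annexins known to gather at wounds of the plasma membrane. Of 9 tested genes of membrane repair outside the family, 0 rose and 1 fell, with a median log2 difference of 0.025; 9.49% of all tested genes were called lower. The calpain gene *CAPN1* fell from 45.6 and 45.7 to 30.7 and 31.1 FPKM (−0.55, SE 0.095; adjusted p = 0.0140, limma), with an adjusted p of 0.0512 with no filter, 0.0523 without si-control 2 and 0.0513 without si-DLX6 1. *MYOF*, a relative of dysferlin, was at 50.3 and 56.0 against 65.2 and 72.4 FPKM and did not pass (0.37, adjusted p = 0.0608). Dysferlin's own gene *DYSF* was at most 0.0253 FPKM, and the muscle repair gene *TRIM72* at 0.

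**Figure D3:**
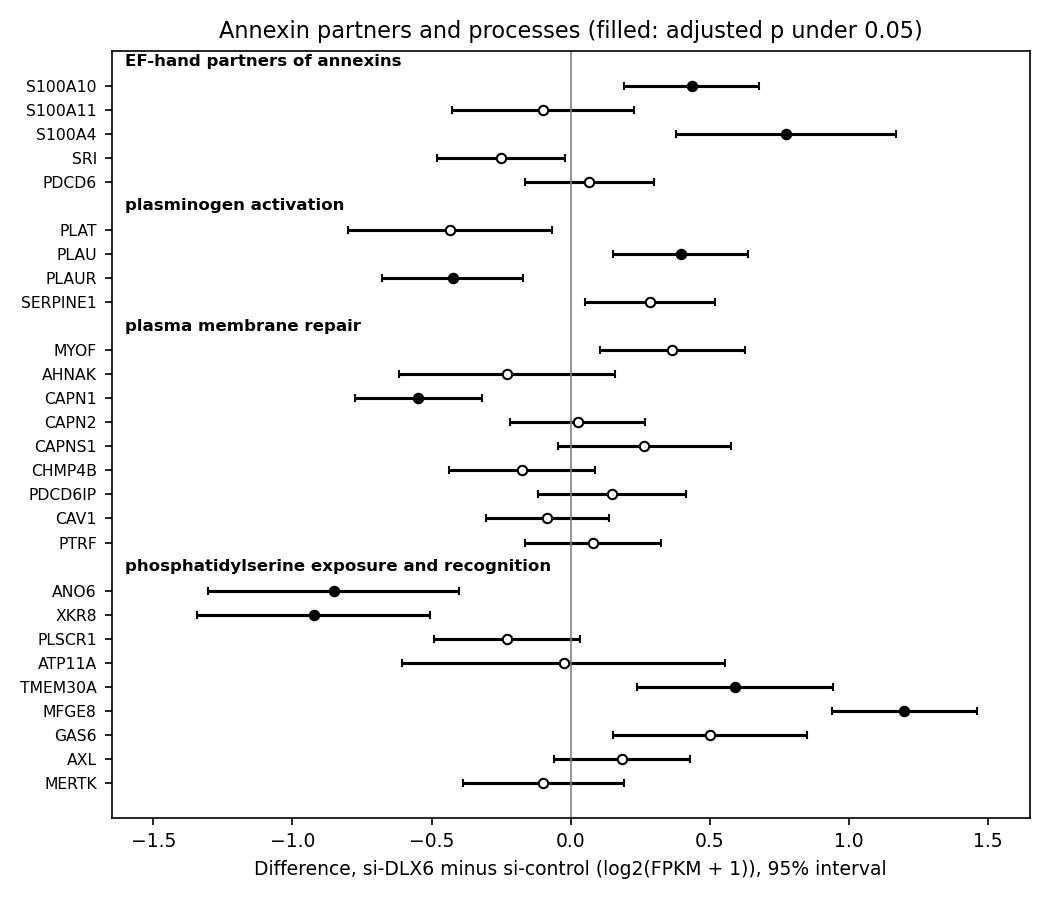
Differences (si-DLX6 minus si-control, log2(FPKM + 1), with 95% limma intervals) of the tested genes of 4 lists of annexin partners and processes; filled points had an adjusted p under 0.05. Points fall on both sides of 0 in each list, from −0.92 for *XKR8* to 1.20 for *MFGE8*.

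*ANXA7* and *ANXA11* encode annexins with long N-terminal tails, the first known for fusing secretory granules and the second for cytokinesis and for tethering RNA granules to lysosomes. *ANXA7* was at 29.3 and 29.8 FPKM with si-control and 38.5 and 38.4 FPKM with si-DLX6. Libraries of a group were almost equal, and the groups lay 8.60 FPKM apart (log2 difference 0.37, SE 0.096; adjusted p = 0.0419, limma). *ANXA11* was at 23.3 and 20.9 FPKM with si-control and 31.5 and 30.1 FPKM with si-DLX6, also without overlap (0.46, SE 0.11; adjusted p = 0.0314, limma). Both lie on the minus strand of chromosome 10, *ANXA7* from 73375101 to 73414076 and *ANXA11* from 80150889 to 80205572. Read totals per library were 635 to 902 for *ANXA7* and 1119 to 1825 for *ANXA11*, or 130.2% (121% to 140%) and 139% (132% to 146%) of si-control.

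*ANXA9* and *ANXA3* had the fewest reads of the 9 genes, and their log2 differences exceeded those of the other 7. *ANXA9* encodes an unusual annexin whose core has lost its calcium-binding sites. It was at 0.763 and 0.952 FPKM with si-control and 2.17 and 2.13 FPKM with si-DLX6, on 17 and 17 against 42 and 42 reads. Reads per library total were 254% of si-control (95% exact interval 169% to 390%), and the log2 difference was 0.77 (SE 0.17; adjusted p = 0.0279, limma). *ANXA3*, known from the granules of neutrophils, was at 0.717 and 0.766 FPKM with si-control and 1.59 and 2.14 FPKM with si-DLX6, on 14 and 12 against 27 and 37 reads. That is 253% of si-control (158% to 416%), with a log2 difference of 0.71 (SE 0.19; adjusted p = 0.0419, limma). The added pseudocount of 1 FPKM holds these differences down: by limma-voom on recovered reads they were 1.33 for *ANXA9* and 1.29 for *ANXA3*. That fit kept the same genes, so there too both were tested only through their si-DLX6 libraries, which favours a rise. *ANXA9* lies on chromosome 1 from 150982017 to 150995634, plus strand, 0.987 Mb from *S100A10*, and *ANXA3* on chromosome 4 from 78551519 to 78610451, plus strand.

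**Figure D4:**
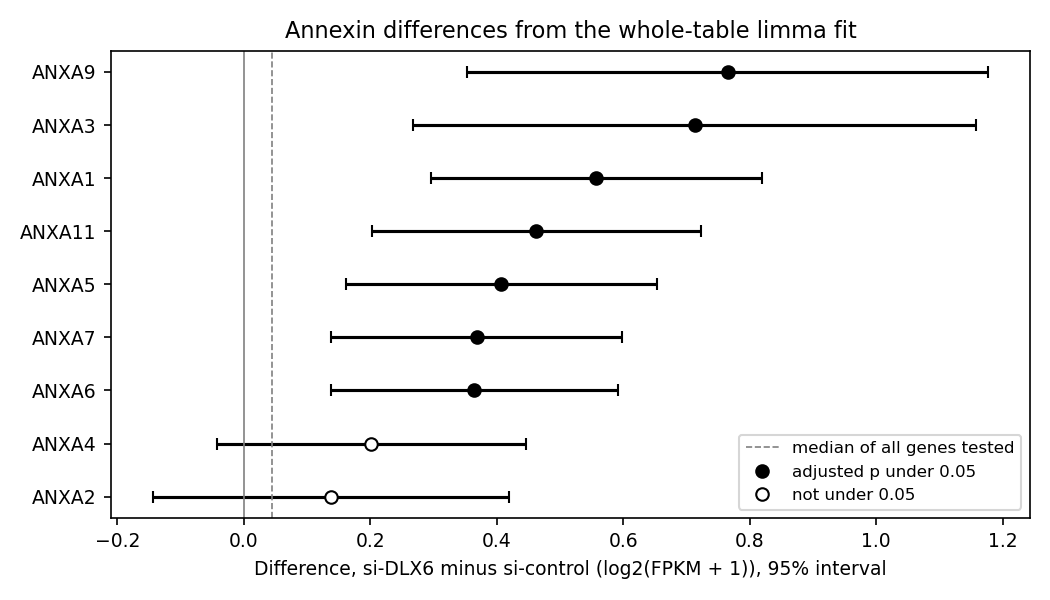
Differences of the 9 annexin genes (si-DLX6 minus si-control, log2(FPKM + 1)) with 95% intervals from the limma fit over all genes; filled points had an adjusted p under 0.05, and the dashed line is the median of all genes tested. Every point is above 0, and the intervals of *ANXA2* and *ANXA4* reach below it.

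Annexin genes outside the 9 were hardly transcribed. In the si-control libraries *ANXA8* drew 2 and 3 reads, and in the si-DLX6 libraries 7 and 4. Its close copy *ANXA8L1* drew 0 and 1 against 2 and 3, and how far reads of the pair can be told apart was not measured. *ANXA10* and *ANXA13* were at 0 reads in all 4 libraries, which allows up to 3 reads in each library (counting error only).

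None of the promoter words searched was found in all 9 genes. In the 250 bases before the RefSeq start (GRCh38.p14), searched on both strands, the TATA box TATAAA was found in 3 of 9 genes (11.1% of 27305 promoters of the same length), CCAAT in 3 (33.0%), the GC box GGGCGG in 5 (42.3%) and the AP-1 word TGANTCA in 1 (6.60%). The antioxidant response core TGACNNNGC (11% of promoters) and the homeodomain core TAATTA (4.49%) were in 0 of the 9. Neighbouring GC boxes may overlap. A single start was searched per gene. The windows of *ANXA2*, *ANXA3* and *ANXA9* lie within the GENCODE gene spans given above, so other starts of these genes were left unsearched. Shown are the promoters of the most abundant pair, *ANXA1* at chr9:73151615-73151864 (plus strand, 38.4% G and C) and *ANXA2* at chr15:60397987-60398236 (minus strand, 78.0%), and of *ANXA9* at chr1:150982042-150982291 (plus strand), a scarce gene with no match, each 5′ to 3′ with matches in capitals.
ANXA1: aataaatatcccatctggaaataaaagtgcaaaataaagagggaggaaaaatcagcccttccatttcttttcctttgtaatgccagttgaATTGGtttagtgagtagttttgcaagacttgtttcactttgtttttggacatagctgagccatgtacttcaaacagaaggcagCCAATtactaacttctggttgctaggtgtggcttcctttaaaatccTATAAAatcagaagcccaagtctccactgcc
ANXA2: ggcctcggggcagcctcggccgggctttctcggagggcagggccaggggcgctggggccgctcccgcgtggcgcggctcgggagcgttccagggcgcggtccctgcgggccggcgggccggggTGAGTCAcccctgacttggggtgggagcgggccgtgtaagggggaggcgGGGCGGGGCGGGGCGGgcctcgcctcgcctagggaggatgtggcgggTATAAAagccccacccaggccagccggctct
ANXA9: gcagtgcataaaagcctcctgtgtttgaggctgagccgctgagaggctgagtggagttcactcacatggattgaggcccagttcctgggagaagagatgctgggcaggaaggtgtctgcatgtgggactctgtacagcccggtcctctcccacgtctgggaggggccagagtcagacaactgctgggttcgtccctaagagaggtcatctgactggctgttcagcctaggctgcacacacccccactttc
*ANXA1* holds CCAAT at 2 places, once on each strand, and a TATA box, in an AT-rich window; *ANXA2* holds an AP-1 word, a run of GC boxes and a TATA box; *ANXA9* and *ANXA3* hold none of the words searched. A match describes the letters only.

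**Figure D5:**
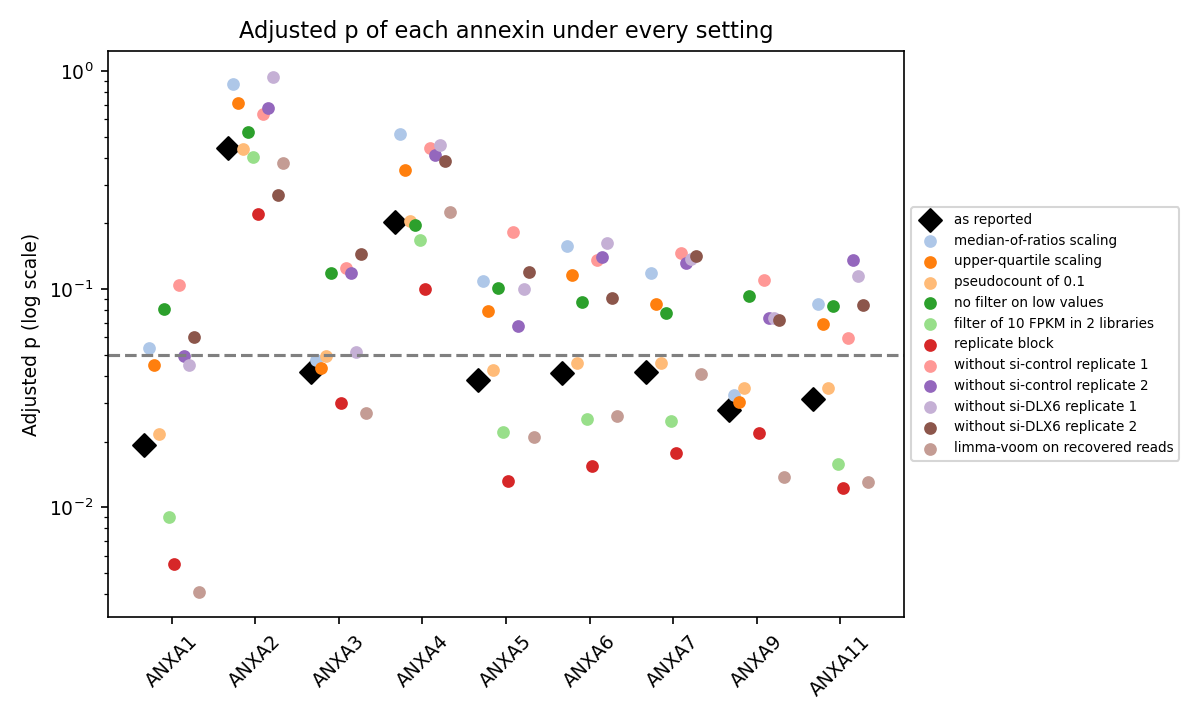
Adjusted p (log scale) of each of the 9 genes under every setting: black diamonds are the values reported here, coloured points the alternatives named in the key, and the dashed line is 0.05. For the 7 called genes points lie on both sides of the line, while *ANXA2* and *ANXA4* stay above it throughout.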

How the data were processed

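The authors deposited 1 table of 51136 genes and 4 libraries. The deposited values carry no unit in the header and were taken as FPKM because each gene's values are whole multiples of a step. No aligner, counter or strand setting is named in the sources used here. GRCm38 and mm10, names of mouse builds, stand in the submitters' processing notes, although the symbols are human. Libraries came from total RNA and a SMARTER mRNA kit, per the labels' protocols. Columns were matched to samples by the names in the labels.

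Whole reads were recovered for all 28637 genes above 0, by rational ratios between libraries (within 2e-05 reads), with totals set by genes of a single annotated length. Within each group the libraries were distinct beyond sampling noise (chi-square over degrees of freedom 6.79 and 8.12). The test, limma-trend from limma 3.58.1 under R 4.3.3, used log2(FPKM + 1) with group as the only term, for genes of at least 1 FPKM in 2 libraries, and Benjamini-Hochberg adjustment over all 15504; log2 differences are on that scale and run low for scarce genes. Tested on simulated reads, it made more false calls than the nominal rate. Intervals of read ratios are exact (Clopper-Pearson, 95%) and cover counting error only. Words of 50 bases came from GENCODE 29 transcripts and promoters from RefSeq (all 9 members matched).

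Members and lists were chosen with earlier results of these data known. Named are the members, *DLX6*, other annexins and *ANXA2* pseudogenes, called genes of each list (at most 5), *S100A10* and *S100A11*, and the 5 genes of pattern most like the member of smallest p; other names (*S100A6*, *SRI*, *PDCD6*, *MYOF*, genes at 0, markers) were added after their values were seen. The labels give no batch. Alternatives were other scalings, pseudocount and filters, a block for replicate number, omission of each library, and limma-voom on recovered reads.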

Additional observations from a re-analysis of the deposited data

How the results depend on the processing

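Called annexins numbered 7 as reported, 2 with median-of-ratios and 3 with upper-quartile scaling, 0 with no filter, and 0 to 1 when a library was left out. No annexin was called lower under any setting tried, though changes of pseudocount or filter, the block and omission of a library could not turn the sign. The count of genes called over the whole table, 3046 as reported, was 372 with no filter, 5119 with the replicate block and 1365 to 1689 when a library was left out. The replicate block left all 7 annexin calls in place. The numbers pair only 2 libraries with 2 others and no label says what they share; replicate 1 minus replicate 2 correlated at 0.20 between groups across genes. The values of the 7 called annexins passed the threshold in 33 of 75 values under alternatives. Leaving out a library reduces power by construction; for the scalings and for no filter the cause was not tested. *ANXA3* and *ANXA9* were outside the filter of 10 FPKM. Leaving out a library turned the sign of 2 uncalled differences, which ranged from −0.27 to 0.073 for *S100A11* and from −0.29 to 0.094 for *ANXA2P1* (0.0034 without si-DLX6 2). Depth limits *ANXA3* and *ANXA9*, with 12 to 42 reads a library.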
